A study of Mus musculus with 4 samples.

Results

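Collagens are the main structural proteins of skin, tendon, cartilage, and bone, and in the mouse they are encoded by a family of genes whose symbols take the form *Col*, a type number, and a chain number. Of the 23946 gene symbols measured, 44 have such a symbol and are described here: 11 of the fibrillar class, 9 of the network-forming class, 9 of the FACIT class, and 15 others. The RNA came from CD51+;CD200+ cells of wild-type CD-1 mice at postnatal day 3, sorted by FACS as skeletal stem/progenitor cells after removal of cells positive for CD105, 6C3, Thy1.1, Thy1.2, Tie2, CD45, or Ter119. The cells were taken from the posterior frontal (PF) suture, which fuses early in life, from the sagittal (SAG) and coronal (COR) sutures, which remain patent, and from the growth plate (GP) of the tibia, the reference tissue. Per the study, all of these sutures, PF included, were still patent at this age. The suture tissue was dissected with the bone fronts, the dura mater beneath, and the periosteum above, and cells of many mice were combined. Each tissue gave 1 library, so there was no replicate error, no test between tissues was possible, and each difference below is a difference between 2 libraries.

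Collagen chains assemble in threes into a triple helix. Fibrillar collagens form the banded fibrils of the matrix. Types I and III, with type V as a minor partner, build the fibrils of bone, suture mesenchyme, and tendon, and types II and XI build those of cartilage. FACIT collagens, such as types IX, XII, XIV, and XVI, sit on fibril surfaces. Network collagens form sheets, as type IV does in basement membranes and type X around the hypertrophic chondrocytes of a growth plate. The posterior frontal suture closes through a cartilage intermediate, and the growth plate makes bone from cartilage throughout growth.

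Levels are given as FPKM, fragment counts scaled for transcript length and for the mapped fragments of the library, so that levels can be compared between genes. The total was between 447174 and 550958 FPKM per library. The number of fragments is not given with the values. The smallest step between low values placed the PF library at 43.7% of the depth of the SAG library, if FPKM was scaled in proportion to depth, and the COR and GP libraries at 87.1% and 83.2%. The sorting marker genes *Itgav* (CD51) and *Cd200* were between 6.20 and 15.0 FPKM and between 23.5 and 62.6 FPKM, and *Ptprc*, the gene of CD45, was at or below 0.568 FPKM. Of other markers sorted against, *Enpep* (6C3) was at 7.05 in PF, 2.74 in SAG, 3.74 in COR, and 1.39 FPKM in GP. *Eng* (CD105) was between 0.679 and 1.70 FPKM, and *Tek* (Tie2) and *Thy1* were at or below 0.627 and 0.435 FPKM. *Col1a1*, *Col1a2*, and *Col3a1* have an exact 0 in COR, as does *Col1a2* in GP, although the other libraries have them at 533 FPKM or more. These 4 values were treated as missing. Among all genes, 4 are at 0 in a library and at 1000 FPKM or more in another, these 3 and *Sparc*, a collagen-binding protein of bone matrix.

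Of the 44 collagen genes, 36 reached 1 FPKM in at least 1 library, and 29 reached 10 FPKM. PF and SAG each had 31 members at 1 FPKM or more, COR had 28 of 41 with a value, and GP had 32 of 43. The 8 members below 1 FPKM in every library were *Col4a3*, *Col4a4*, *Col6a4*, *Col6a5*, *Col6a6*, *Col7a1*, *Col17a1*, and *Col19a1*, and the highest of their values was 0.697 FPKM, for *Col4a3* in PF. In the plot of levels by class, the members at 10 FPKM or more ran from below 1 FPKM to 8161 FPKM.

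**Figure D1:**
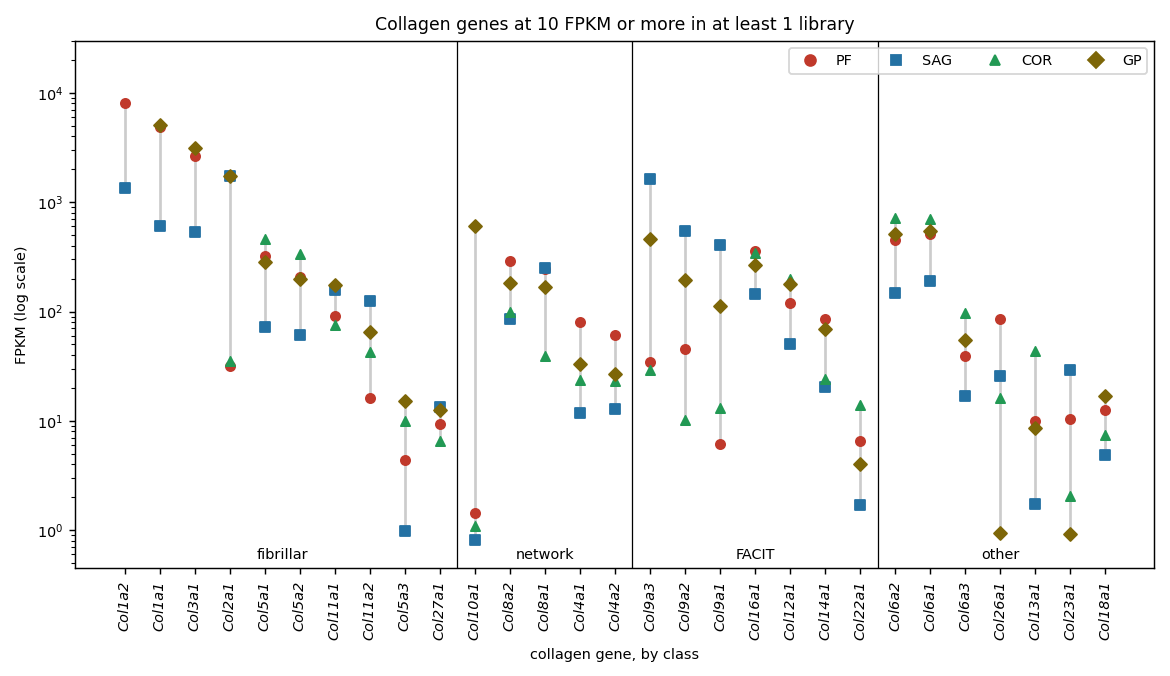
FPKM (log scale) of the 29 collagen genes that reached 10 FPKM in at least 1 library, grouped by class along the horizontal axis, with 1 point per library (PF circle, SAG square, COR triangle, GP diamond) and a grey line from the lowest to the highest. The values treated as missing are left out. SAG and GP lie far above PF and COR for *Col2a1* (1749.8 and 1731 against 31.4 and 35.4 FPKM), while SAG is the lowest for *Col5a1* and *Col6a1*.

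The collagen genes of cartilage fibrils were high in SAG and GP and low in PF and COR, least so for *Col11a1*. *Col2a1* (mm9 chromosome 15, 97806033 to 97835155), the single chain gene of type II collagen, was at 31.4 in PF, 1749.8 in SAG, 35.4 in COR, and 1731 FPKM in GP. The SAG and GP values differed by a ratio of 1.01, and SAG was 55.7-fold above PF and 49.4-fold above COR. In bulk RNA, a smaller number of cells that make a transcript and less of it per cell cannot be told apart. The place of *Col2a1* among the genes of each library ran from 11th in SAG and 17th in GP to 2591st in COR and 2917th in PF.

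Type IX collagen, a FACIT that coats type II fibrils, is made of the chains of *Col9a1*, *Col9a2*, and *Col9a3*. All of them were highest in SAG, with GP next. *Col9a3* was at 34.2 in PF, 1627 in SAG, 29.4 in COR, and 465 FPKM in GP. *Col9a1* was at 6.15, 404, 13.1, and 113 FPKM in this order. *Col9a2* was at 45.8, 541, 10.3, and 195 FPKM. Unlike *Col2a1*, these genes stood higher in SAG than in GP, by 3.56-fold for *Col9a1*, 2.78-fold for *Col9a2*, and 3.50-fold for *Col9a3*. *Col9a2* was the member of this trio that differed most between the COR and PF sutures, 4.46-fold higher in PF, while *Col9a1* was 2.13-fold higher in COR.

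The type XI chain genes followed a flatter course. *Col11a1* was at 90.7 in PF, 159 in SAG, 75.9 in COR, and 174 FPKM in GP, and no pair of libraries reached 3-fold for it. *Col11a2* was at 16.2 in PF, 124 in SAG, 42.7 in COR, and 65.4 FPKM in GP, so that SAG was 7.66-fold above PF. PF and COR thus held *Col11a1* at levels above *Col2a1*, with a ratio of *Col2a1* to *Col11a1* of 0.347 in PF and 0.467 in COR, compared with 11.0 in SAG and 9.94 in GP.

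The bases before the RefSeq transcription starts of 4 of the genes that separate these libraries are shown because their genes are high in SAG, GP, or both. *Col2a1* and *Col9a3* have no entry in the promoter table used. Each line gives the 250 bases before a start, from 5′ to 3′ on the strand of the gene, placed on mm9 by exact match: *Col9a1* has 2 starts, at chr1:24184199-24184448 and chr1:24201792-24202041, and *Col9a2*, *Col11a2*, and *Col10a1* have 1 each, at chr4:120711921-120712170, chr17:34175833-34176082, and chr10:34109537-34109786, all on the plus strand. Capitals mark matches on either strand to the TATA box TATAAA, to the box called CCAAT, to ACAAAG as the core of SOX sites, to TGTGGT as the core of RUNX sites, or to GGGCGG as the GC box, none of which contains another.
*Col9a1*, first start: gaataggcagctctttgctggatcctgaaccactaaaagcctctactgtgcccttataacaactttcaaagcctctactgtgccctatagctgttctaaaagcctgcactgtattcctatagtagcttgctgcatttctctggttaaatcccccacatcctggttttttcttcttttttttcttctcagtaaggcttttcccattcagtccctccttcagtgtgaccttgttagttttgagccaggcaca
*Col9a1*, second start: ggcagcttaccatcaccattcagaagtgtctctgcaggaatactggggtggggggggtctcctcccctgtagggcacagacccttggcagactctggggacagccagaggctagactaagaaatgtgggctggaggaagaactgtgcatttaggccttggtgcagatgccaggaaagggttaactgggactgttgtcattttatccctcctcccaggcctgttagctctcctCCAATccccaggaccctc
*Col9a2*: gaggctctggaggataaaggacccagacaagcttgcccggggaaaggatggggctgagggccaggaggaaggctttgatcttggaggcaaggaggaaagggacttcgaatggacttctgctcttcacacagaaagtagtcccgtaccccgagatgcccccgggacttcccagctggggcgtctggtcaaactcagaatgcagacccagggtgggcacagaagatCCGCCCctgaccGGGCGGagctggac
*Col11a2*: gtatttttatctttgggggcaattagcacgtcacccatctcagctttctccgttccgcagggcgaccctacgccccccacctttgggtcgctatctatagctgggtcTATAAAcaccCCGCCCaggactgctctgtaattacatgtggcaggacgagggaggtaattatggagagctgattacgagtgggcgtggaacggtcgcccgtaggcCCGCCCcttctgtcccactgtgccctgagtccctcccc
*Col10a1*: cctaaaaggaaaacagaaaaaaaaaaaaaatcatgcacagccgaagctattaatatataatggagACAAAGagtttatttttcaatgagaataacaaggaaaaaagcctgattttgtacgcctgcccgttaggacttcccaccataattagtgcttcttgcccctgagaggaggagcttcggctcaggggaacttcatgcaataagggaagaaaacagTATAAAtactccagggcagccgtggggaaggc

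*Col10a1*, which was high in GP alone, has TATAAA starting 32 bases before its start and ACAAAG starting 185 bases before it. *Col11a2* has TATAAA farther away, 143 bases before its start. The first start of *Col9a1* has none of the 5 motifs in its 250 bases, and the second has CCAAT starting 18 bases before it. Windows of 300 bases, from 250 before to 50 after a start, were in the table for 35 of the 44 collagen genes, 38 windows in all. GGGCGG was in 23 of these windows (60.5%), compared with 35.7% of all 32851 windows. The TATA box was in 13.2% of the collagen windows and 13.6% of all, and CCAAT in 34.2% and 37.4%. The SOX core was in 13.2% and 18.7%, and the RUNX core in 7.89% and 16.8%. A match is a description of letters and not of binding.

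Among the network collagens, *Col10a1* had the greatest range of any member that reached 10 FPKM. It was at 600.45 FPKM in GP and at 1.44 in PF, 0.813 in SAG, and 1.08 in COR, so that GP was 417-fold, 738-fold, and 554-fold above them. SAG and GP, which were alike in *Col2a1*, were therefore far apart in *Col10a1*, with a *Col2a1* to *Col10a1* ratio of 2151 in SAG and 2.88 in GP. Of the 6 hypertrophic chondrocyte markers listed for comparison, *Ihh* was at 44.0 FPKM in GP, 6.48 in COR, 0.381 in SAG, and 0.136 in PF. *Mmp13* was also highest in GP, at 605 FPKM, with 346 in SAG, 298 in COR, and 28.9 in PF. The other 4, *Spp1*, *Panx3*, *Pth1r*, and *Mef2c*, were highest in COR, with GP next, and the list summed to between 1010.4 FPKM in SAG and 9192 in COR.

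Type VIII collagen, a short-chain network collagen of Descemet's membrane and vessel walls, was abundant in all 4 libraries, and its chains differed in their order. *Col8a1* was at 243 in PF, 252 in SAG, 39.4 in COR, and 169 FPKM in GP, and COR was thus the single low library. *Col8a2* was at 290.1 in PF, 85.3 in SAG, 99.5 in COR, and 182 FPKM in GP, with PF highest. *Col4a1* and *Col4a2*, the ubiquitous basement membrane chains, were both highest in PF and lowest in SAG. *Col4a1* was at 80.7, 11.7, 23.9, and 33.3 FPKM in PF, SAG, COR, and GP, and *Col4a2* at 61.2, 12.8, 22.9, and 26.7. The X-linked chain genes were low. *Col4a5* was at 4.06 FPKM in SAG, 2.06 in PF, 1.92 in GP, and 0.37 in COR, and *Col4a6* passed 1 FPKM in SAG alone, at 1.64. Endothelial cells make such a membrane, and their 5 listed markers summed to between 1.10 and 16.9 FPKM. *Pecam1* was at or below 0.295 FPKM in every library, and *Kdr* gave 14.9 FPKM of the sum in SAG.

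The fibrillar collagens of bone and fibrous tissue were lowest in SAG among the libraries with a value, which leave out COR for types I and III. *Col1a1* (chromosome 11, 94797538 to 94814356) was at 4894 in PF, 606 in SAG, and 5048 FPKM in GP. *Col1a2* was at 8161 FPKM in PF and 1336 in SAG, and *Col3a1* at 2634, 533, and 3111 FPKM in PF, SAG, and GP. PF and GP were close for *Col1a1* and *Col3a1*, with ratios of GP to PF of 1.03 and 1.18, while SAG was 8.07-fold and 4.94-fold below PF. These genes were among the highest of their libraries, *Col1a2* 2nd and *Col1a1* 3rd in PF and *Col1a1* 3rd in GP. The type V chains, which set fibril diameter together with type I, were measured in all 4 libraries, and *Col5a1* and *Col5a2* stood highest in COR. *Col5a1* was at 319.6 in PF, 72.6 in SAG, 457 in COR, and 284 FPKM in GP, and *Col5a2* at 207, 61.2, 337, and 196. *Col5a3* was at 4.36, 0.98, 9.91, and 15.3 FPKM, highest in GP. *Col5a2* lies next to *Col3a1* on chromosome 1, tail to tail with 24614 bases between them, and was at 337 FPKM in the COR library that lists *Col3a1* at 0.

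The remaining fibrillar genes were at low levels. *Col27a1*, a cartilage-associated chain, was at 9.33, 13.4, 6.49, and 12.6 FPKM in PF, SAG, COR, and GP and did not reach 3-fold in any pair. *Col24a1*, a chain known from developing bone, was at 2.47 and 1.01 FPKM in PF and SAG and at 8.37 and 9.78 in COR and GP. Between SAG and COR it ran opposite to *Col2a1*.

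The FACIT genes *Col12a1*, *Col14a1*, *Col16a1*, and *Col22a1* were all lowest in SAG. *Col16a1* was at 359 in PF, 146 in SAG, 341 in COR, and 266 FPKM in GP, without a 3-fold difference in any pair. *Col12a1*, which is strong in periosteum and tendon, was at 120.4, 50.9, 198, and 179 FPKM, and COR and GP were 3.89-fold and 3.51-fold above SAG. *Col14a1* was at 84.9 FPKM in PF and 68.8 in GP and at 20.4 in SAG and 24.2 in COR, so that PF and GP stood above SAG and COR. *Col22a1*, known from the junction of muscle with tendon, was at 6.56, 1.68, 13.9, and 4.05 FPKM. *Col20a1* was at 4.70 FPKM in GP and at or below 0.856 in the sutures.

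Type VI collagen forms beaded filaments around cells, from the chains of *Col6a1*, *Col6a2*, and *Col6a3*. These were highest in COR and lowest in SAG. *Col6a1* was at 516 in PF, 189 in SAG, 704 in COR, and 549 FPKM in GP. *Col6a2* was at 452, 149, 715, and 508 FPKM in this order, and *Col6a3* at 38.8, 16.9, 96.3, and 54.5. The 3 genes *Col6a4*, *Col6a5*, and *Col6a6* were at or below 0.111 FPKM.

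The transmembrane and unclassed collagens separated the sutures from GP or from each other. *Col26a1*, a short collagen first known from testis and ovary, was at 85.7 in PF, 25.6 in SAG, and 16.2 FPKM in COR, and at 0.938 in GP. The ratio to GP was 91.4 in PF, 27.3 in SAG, and 17.2 in COR, so that all sutures stood above GP. *Col23a1*, a transmembrane collagen, was at 10.5 in PF, 28.9 in SAG, 2.04 in COR, and 0.918 FPKM in GP, highest in the midline sutures. *Col13a1*, a transmembrane collagen of cell adhesion sites, was at 9.90, 1.75, 43.1, and 8.60 FPKM, and COR was 24.6-fold above SAG and 4.36-fold above PF. *Col25a1*, *Col15a1*, and *Col28a1* were highest in GP, at 5.34, 4.67, and 1.05 FPKM, and at or below 1.35 FPKM in each suture. *Col18a1*, whose product gives rise to endostatin, was at 12.6, 4.82, 7.47, and 16.8 FPKM in PF, SAG, COR, and GP.

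The make-up of the family was compared between libraries by summing FPKM over the 41 genes with a value in all 4, that is without *Col1a1*, *Col1a2*, and *Col3a1*. The sum was 5948 FPKM in GP and 5761 in SAG, and 3378 in COR and 3144 in PF. These were 1.17%, 1.30%, 0.689%, and 0.587% of the total without those 3 genes. The 6 chain genes of types II, IX, and XI made up 79.9% of the sum in SAG and 46.1% in GP, compared with 7.14% in PF and 6.12% in COR. The other class, which holds the type VI genes, was 47.0% of the sum in COR and 7.27% in SAG. Network collagens were 21.6% in PF and 17.0% in GP, and 6.40% and 5.54% in SAG and COR. When all 44 genes were counted, as was possible in the libraries without a missing value, collagens made up 3.42% of the total in PF and 1.84% in SAG.

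**Figure D2:**
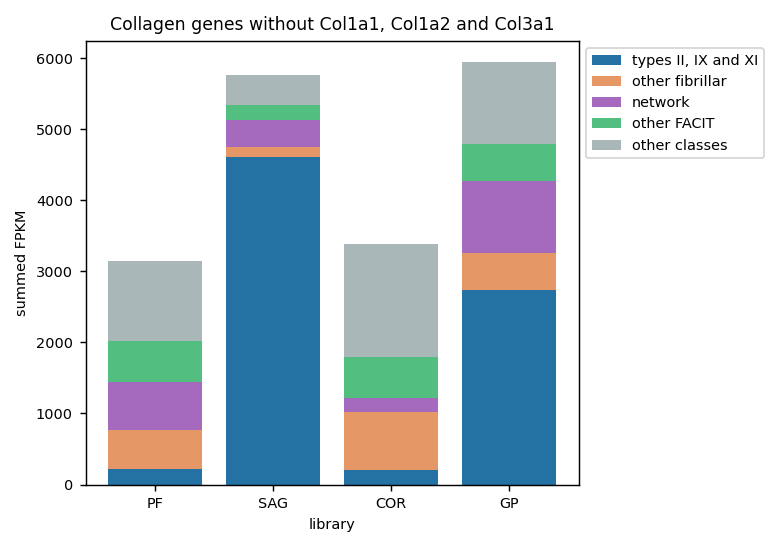
Summed FPKM of the 41 collagen genes other than *Col1a1*, *Col1a2*, and *Col3a1* in each library, stacked by class, with the 6 chain genes of types II, IX, and XI shown apart from the other fibrillar and FACIT genes. The 6 genes sum to 4605 FPKM in SAG and 2744 in GP, and to 224 in PF and 207 in COR.

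Taken as sums, the markers of chondrocytes and osteoblasts moved with these groups, though single markers did not all do so. Of 8 chondrocyte markers listed for comparison, 7 were in the table (*Sox9*, *Acan*, *Hapln1*, *Matn1*, *Matn3*, *Comp*, and *Lect1*), all at 1 FPKM or more in every library. They summed to 102 in PF, 2629 in SAG, 85.3 in COR, and 1384 FPKM in GP. In the SAG sum, *Lect1* was at 1094 FPKM and *Matn1* at 838. *Acan*, *Hapln1*, *Matn3*, and *Comp* were higher in GP than in SAG, unlike the type IX genes. Of the 7 markers, 6 were at least 3-fold higher in SAG than in PF (9.04% of all genes), and 7 were higher in GP than in COR (3.19%). *Acan* was the exception between SAG and PF, at 25.9 and 23.3 FPKM. *Sox9*, the transcription factor that activates *Col2a1* in chondrocytes, was at 171 FPKM in SAG, 60.8 in GP, 21.3 in PF, and 11.9 in COR. The 8 osteoblast markers summed to 1198 in PF, 284 in SAG, 3744 in COR, and 1357 FPKM in GP, so that SAG was lowest and COR highest, as for *Col5a1*, *Col5a2*, and the type VI genes. All 8 were at least 3-fold higher in COR than in SAG (3.11% of all genes). Between PF and SAG, 4 of 7 were at least 3-fold higher in PF (6.64% of all genes). *Dmp1* and *Phex* were lower in PF (19.7 and 0.053 FPKM) than in SAG (21.8 and 0.462). Markers of another tissue were also present. The 6 choroid plexus or neural markers summed to 5308 FPKM in SAG, 479 in PF, 156 in COR, and 12.8 in GP, of which *Ttr* alone gave 5103 in SAG, and *Otx2* was at 168.3 there. *Ttr* also gave most of the sum in PF (465 FPKM) and COR (141). The neural markers *Tubb3* and *Stmn2* were instead highest in COR (10.2 FPKM) and GP (0.965), and at 1.28 and 0.120 in SAG. The 7 meningeal markers summed to 346 FPKM in PF, where *Col4a1* and *Col8a2* were highest, and to between 102 and 221 in the others. The sum of the 7 fibroblast or tendon markers was lowest in SAG, at 1935 FPKM, and highest in GP, at 6944. Singly, *Scx* and *Dcn* were lowest in SAG, *Dpt* and *Postn* in PF, *Tnmd* and *Fmod* in COR, and *Pdgfra* in GP. Leukocyte markers, 4 in all, summed to 34.4 FPKM in PF, of which *Lyz2* gave 30.2, and to between 5.44 and 10.7 in the others. *Csf1r* was lowest in PF, at 0.059 FPKM, and highest in COR, at 0.797. A pair of globin genes, markers of erythroid cells, had a sum of 15.5 FPKM in PF and between 1.69 and 1.89 in the others. Epithelial markers, 4 in all, summed to between 0.151 and 4.06 FPKM. The part of these cell types in the collagen differences was not tested.

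A 3-fold ratio, on the log2(FPKM + 1) scale and with 1 FPKM or more in at least 1 library of the pair, was the measure of a difference. On it, ratios of genes with low values come out smaller than they are. Of the 36 members that reached 1 FPKM, 31 differed at least 3-fold between some pair of libraries, as did 24.7% of all 13998 genes that reached it, and 5 did not: *Col11a1*, *Col16a1*, *Col27a1*, *Col28a1*, and *Col4a6*. Of the 33 members compared between PF and SAG, 12 were at least 3-fold higher in PF, and 6.64% of all genes were. Another 5 were at least 3-fold higher in SAG (9.04% of all genes), namely *Col2a1*, the 3 type IX genes, and *Col11a2*. After a correction for GC content the PF vs SAG counts were 6 and 7, and 14.6% of all genes differed in either direction. *Col23a1* was newly at a log2 ratio of -1.75 and *Col4a6* at -1.62. *Col13a1*, *Col4a2*, *Col5a1*, *Col6a2*, and *Col8a2* then fell short of 3-fold, with log2 ratios between 1.15 and 1.58, and *Col26a1* has no GC value. The median log2 ratio over the 33 members was 1.23, compared with 0.025 over all 13490 genes. It was 0.74 after the GC correction and 0.37 over all 44 members without the filter on low values.

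PF and COR differed less. Of 29 members, 6 were at least 3-fold higher in PF (*Col14a1*, *Col23a1*, *Col26a1*, *Col4a1*, *Col8a1*, and *Col9a2*), and 6.79% of all genes were. *Col13a1* was the 1 member at least 3-fold higher in COR (4.87% of all genes). The fibrillar class held none of these among its 8 genes with a value in both. With the GC correction the counts were 3 and 2, and 11.2% of all genes differed in either direction. *Col4a1* was then at a log2 ratio of 1.42, *Col9a2* at 1.57, and *Col11a2* at -1.84. Between COR and SAG, 10 of 31 members were at least 3-fold higher in COR (3.11% of all genes), among them the 3 type V and the 3 measured type VI genes above. Another 7 were at least 3-fold higher in SAG (6.13% of all genes), which were *Col2a1*, the type IX trio, *Col8a1*, *Col23a1*, and *Col4a5*.

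Against GP, more members were lower than higher in each suture. In PF, 2 of 34 members were at least 3-fold higher than in GP (5.71% of all genes), *Col23a1* and *Col26a1*, and 11 were lower (6.24% of all genes). Among members with 1 FPKM or more in both libraries, 0 were higher and 8 lower, and 5.65% of all such genes differed in either direction. In SAG, 4 of 35 were higher (4.80% of all genes) and 16 lower (3.86% of all genes). The 4 were *Col9a1*, *Col9a3*, *Col23a1*, and *Col26a1*, and the 16 included *Col1a1* at a log2 ratio of -3.06 and *Col5a3* at -3.04. In COR, 2 of 32 were higher (1.20% of all genes), *Col13a1* and *Col26a1*, and 8 lower (3.19% of all genes), among them *Col2a1* and the type IX genes. *Col26a1* was higher in every suture, and *Col10a1*, *Col20a1*, and *Col25a1* were lower in every suture. These comparisons share the GP library.

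**Figure D3:**
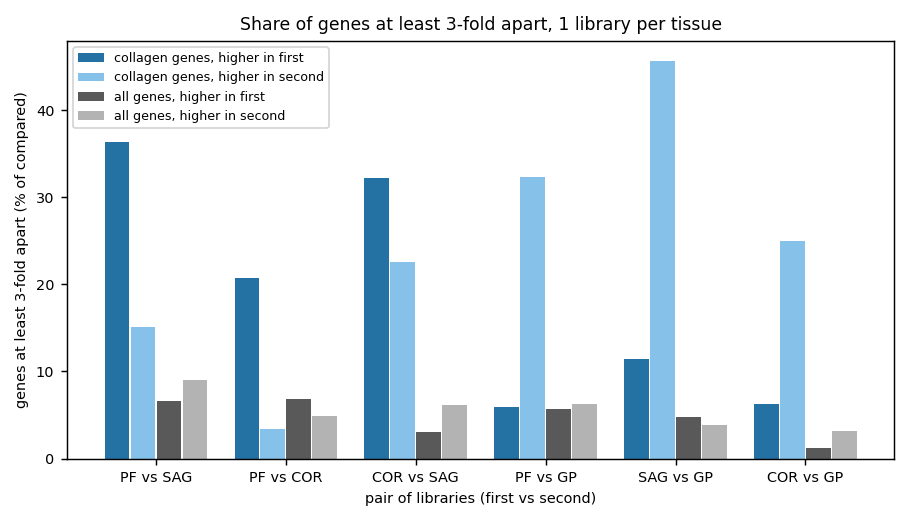
Percentage of the compared genes that were at least 3-fold higher in the first or in the second library of each pair, for collagen genes (blue) and for all genes (grey), with 1 library per tissue and no error bars. The tallest bar is that of collagen genes higher in GP than in SAG, 16 of 35, beside 3.86% of all genes.

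The library with the lowest value of a gene was recorded for the 33 members that reached 1 FPKM and had a value in all 4 libraries. SAG was lowest for 17 of them, or 51.5%, compared with 27.4% of 13998 genes of the whole table. The 17 held 4 fibrillar, 4 network, 4 FACIT, and 5 other genes. SAG was at the same time highest for 10, or 30.3% (28.4% of all genes). GP was lowest for 2 (6.06%, and 17.3% of all genes), *Col23a1* and *Col26a1*, and highest for 9 (27.3%, and 16.4% of all genes). PF was lowest for 6 and highest for 6, each 18.2% of the members, compared with 35.8% and 35.2% of all genes. COR was lowest for 8 and highest for 8, each 24.2%, compared with 19.6% and 19.9%.

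Partner chains that assemble into the same molecule were compared by the ratio of their FPKM within a library. The ratio of *Col6a1* to *Col6a2* was between 0.985 and 1.27 in the 4 libraries, that of *Col5a1* to *Col5a2* between 1.19 and 1.54, and that of *Col4a1* to *Col4a2* between 0.919 and 1.32. Each of these pairs thus kept its proportion within a factor of 1.43, while levels ranged 6.29-fold for *Col5a1*, 6.88-fold for *Col4a1*, and 4.81-fold for *Col6a2*. *Col4a1* and *Col4a2* lie head to head on chromosome 8, with annotated starts that overlap by 22 bases. The ratio of *Col1a1* to *Col1a2* was 0.600 in PF and 0.454 in SAG, the libraries with both values. Protein of type I has 2 chains of *Col1a1* for each of *Col1a2*, and transcript ratios do not measure it.

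Other partners did not keep a proportion. The ratio of *Col9a1* to *Col9a2* was lowest in PF, at 0.134, and reached 0.582 in GP, 0.746 in SAG, and 1.28 in COR, a 9.51-fold range. That of *Col8a1* to *Col8a2* was 2.96 in SAG, 0.928 in GP, 0.838 in PF, and 0.396 in COR, a 7.47-fold range. That of *Col11a1* to *Col11a2* was 5.61 in PF and 1.28 in SAG, with COR and GP between them. Chains of types VIII and XI can also assemble in other combinations, and *Col11a1* chains join type V. No test of these ratios was possible with 1 library each.

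**Figure D4:**
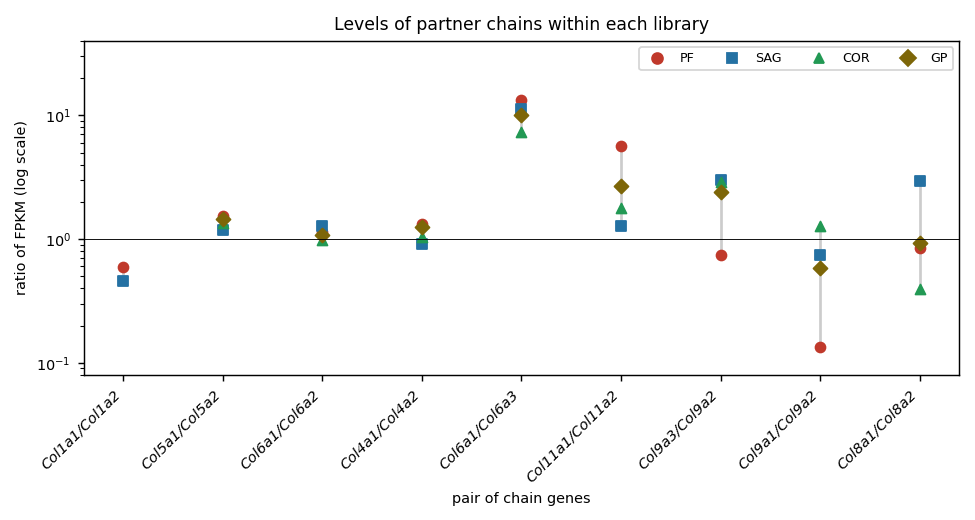
Ratio of the FPKM of partner chain genes (log scale) within each library, with 1 point per library (PF circle, SAG square, COR triangle, GP diamond) and a line at equal levels. The points of *Col6a1* over *Col6a2* lie between 0.985 and 1.27, and those of *Col9a1* over *Col9a2* between 0.134 and 1.28.

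The enzymes that fold, trim, and crosslink collagens were compared from a list of 25 names, of which 24 were in the table. *Ppib*, *Crtap*, and *Lepre1*, which form the prolyl 3-hydroxylation complex, were at 1291, 551, and 147 FPKM in PF and at 721, 184, and 38.1 in SAG. *Pcolce*, which speeds the trimming of fibrillar procollagen, was at 1920.4 in PF, 298 in SAG, 1327 in COR, and 1136 FPKM in GP. *Adamts2*, the protease that removes the amino-terminal propeptide, was at 137, 17.4, 68.3, and 28.8 FPKM. *Serpinh1*, the collagen chaperone, was at 389, 215, 800.03, and 419.6 FPKM, with COR highest. SAG was lowest for each of the enzyme genes named so far. At least 3-fold differences from it were seen for 7 of 24 genes higher in PF (6.64% of all genes) and 7 higher in COR (3.11%). The other way were 2 against PF (9.04%), *Leprel1* and *Pcolce2*, and 1 against COR (6.13%), *Pcolce2*. *Plod2*, *Loxl3*, *Loxl4*, and *Adamts3* were also higher in SAG than in PF, by less. Between SAG and GP, 0 were at least 3-fold higher in SAG (4.80% of all genes) and 3 higher in GP (3.86%). Between PF and COR, 0 were at least 3-fold higher in PF (6.79% of all genes), and 2 were higher in COR (4.87%). The median log2 ratio over the 24 genes was 1.10 for PF vs SAG and 0.96 for COR vs SAG.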

How the data were processed

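Per the labels and the methods of the study, the authors sorted CD51+;CD200+ cells, amplified cDNA with a low-input kit, mapped paired-end reads to mouse mm9 with STAR 2.5.1b, and used the iGenomes gene model with Cuffdiff of Cufflinks 2.2.1. What was deposited is a table per library of FPKM by symbol. The scaling used within Cuffdiff is not given in the sources used here. Samples were grouped by tissue from their titles. Collagen genes were the symbols formed as described above, and members at 10 FPKM or more, or below this and at least 3-fold different, were named. Members, classes, and lists were chosen with earlier results of these data known. A listed marker is not reported here. Ratios were taken on log2(FPKM + 1) over the whole table, and no test was made. The alternatives were a pseudocount of 0.1, median-ratio scaling, quantile normalization, other filters on low values, listed zeros kept, a 2-fold threshold, and a loess correction for GC content (span 0.3) with transcripts of GENCODE on mm9. Promoter sequences were from RefSeq (GRCm38.p6) and were placed on mm9 by exact match. Steps were tested on simulated data. Python 3.11.15, numpy 2.4.6, pandas 2.3.3, statsmodels 0.14.6, and matplotlib 3.10.9 were used.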

Additional observations from a re-analysis of the deposited data

How the results depend on the processing

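No paired analysis was possible because there is a single library of each tissue, and for that reason no library could be left out. The number of collagen genes at least 3-fold apart was computed under 9 alternatives for each of the 6 pairs, and 50 of the 54 values were within 1.5 times the reported count. Some of these values could not differ. Without a filter on low values the count is fixed, since members below 1 FPKM in both libraries cannot reach 3-fold on this scale. Keeping the listed zeros cannot change PF vs SAG, which has no missing value. With a 2-fold threshold the counts were 26 between PF and SAG (34.7% of all genes), 14 between PF and COR (29.4%), and 16 between COR and GP (9.94%). A lower threshold admits more genes. With 1 FPKM or more required in both libraries, 8 members differed between PF and GP (5.65% of all genes) in place of 13, since members below 1 FPKM in a library were left out. Over the alternatives other than the 2-fold threshold, the counts ran from 13 to 20 between PF and SAG, 5 to 10 between PF and COR, 15 to 20 between COR and SAG, 8 to 14 for PF vs GP, 14 to 22 for SAG vs GP, and 7 to 13 for COR vs GP. The median log2 ratio of the members kept its sign under each alternative run except for PF vs COR, where it ran from -0.47 to 0.22. It ran from 0.37 to 1.44 between PF and SAG, 0.20 to 0.67 between COR and SAG, -0.52 to -0.09 for PF vs GP, -1.53 to -0.86 for SAG vs GP, and -0.73 to -0.27 for COR vs GP. Of 1280 ratios of single members at 10 FPKM or more under an alternative, 0 that were at least 3-fold turned direction, 16 fell below 3-fold, and 11 rose above it. The other filters on low values (151, 157, and 163 of these ratios) and the kept zeros (163) do not alter a ratio, so they could not move one. All changes came from the remaining alternatives. With the GC correction, members closer than 3-fold changed sign between PF and another library, such as *Col8a1* for PF vs SAG (0.23) and *Col9a3* for PF vs COR (-0.14), and the cause was not tested. Median-ratio factors of the libraries were at most 1.03. The PF library was the shallowest by the estimate from low values, which limits ratios of members near 1 FPKM most.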
